A study of Mus musculus with 12 samples.

Results

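The collagen chain genes of the mouse were followed in 12 total RNA libraries of NIH-3T3 cells. Members were the rows of the deposited table of normalized read counts whose gene identifier maps to a protein-coding symbol made of Col, a number, the letter a and a number, which gave 44 genes of 54392. They were divided into 11 fibrillar chains, 6 basement membrane chains (type IV) and 27 chains of other types. NIH-3T3 is an immortalised mouse embryonic fibroblast line. The study compared unedited cells, labelled Crls1WT (WT here), with 3 lines labelled Crls1KO1, Crls1KO2 and Crls1KO3 (KO1, KO2 and KO3), with 3 libraries from each. Crls1 encodes cardiolipin synthase, which produces cardiolipin, a lipid found in the inner membrane of mitochondria. The labels' protocols say that a plasmid encoding Cas9 and a guide RNA against Crls1 was transfected and that single GFP-positive cells were sorted to found lines, so each KO line stands for 1 sorted cell. All 4 groups carry the same labelled medium, with glucose, glutamine, serum, pyruvate and uridine. The labels do not say whether WT cells were also sorted, or whether libraries with the same group label were grown apart. The p-values therefore measure only the spread between these libraries, which may be technical. Within 1 clone, the edit of Crls1 and any other difference between the founding cell and the WT cells cannot be told apart.

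Crls1 itself stood at 740, 873 and 834 normalized counts in WT, at 209, 209 and 213 in KO1, at 336, 338 and 374 in KO2 and at 363, 372 and 408 in KO3, so that every clone library was below every WT library. Depth was 32929242 to 42211807 reads per library. Correlations of log2 values between libraries were 0.981 to 0.989 within a group, 0.942 to 0.95 between clones and 0.918 to 0.941 between WT and a clone. Of the 8 fibroblast markers, 6 passed the filter on low values, with the fibronectin gene Fn1 highest at 339695 normalized counts in WT and the intermediate filament gene Vim at 75443. The small proteoglycan Lum was at 0 in every library and Dcn at 0 in every WT library, so these 2 markers of connective tissue fibroblasts were absent or near 0 here.

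Collagens are trimers of alpha chains wound into a triple helix, and each chain has its own gene. Fibrillar collagens (types I, II, III, V, XI, XXIV and XXVII) are secreted as procollagens, trimmed at their ends and packed into fibrils; type I is the main fibril protein of fibroblasts, type III is co-assembled with it in soft tissue, and type V starts fibrils and limits their width. Type IV chains form the sheet-like network of basement membranes, type VI chains form beaded filaments beside cells, and the remaining types bind fibrils, anchor epithelia, build short-chain networks or cross the plasma membrane. Fibroblasts are the main source of fibrillar collagen in connective tissue.

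The 5 members below are shown as examples of chains called in the same direction in every clone, 1 that rose (Col3a1) and 4 that fell, and were chosen after their values were seen; the sequence given for each is the 250 bases before the RefSeq start (GRCm38.p6), none overlapping an annotated exon, 5′ to 3′ on the gene's own strand. Capitals mark TATAAA or the GC box GGGCGG, the latter here always read from the opposite strand as CCGCCC.
Col3a1 (chr1:45311288-45311537, plus strand): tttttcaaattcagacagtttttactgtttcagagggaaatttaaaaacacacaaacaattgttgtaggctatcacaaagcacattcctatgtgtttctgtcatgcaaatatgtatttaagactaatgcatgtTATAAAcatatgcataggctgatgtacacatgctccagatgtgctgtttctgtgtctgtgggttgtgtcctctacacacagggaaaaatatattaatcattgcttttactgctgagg
Col10a1 (chr10:34389731-34389980, plus strand): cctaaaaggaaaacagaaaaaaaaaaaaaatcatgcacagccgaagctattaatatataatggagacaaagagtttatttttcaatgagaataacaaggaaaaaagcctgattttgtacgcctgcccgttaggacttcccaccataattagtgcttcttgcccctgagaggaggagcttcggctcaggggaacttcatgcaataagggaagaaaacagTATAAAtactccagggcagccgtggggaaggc
Col8a1 (chr16:57754738-57754987, minus strand): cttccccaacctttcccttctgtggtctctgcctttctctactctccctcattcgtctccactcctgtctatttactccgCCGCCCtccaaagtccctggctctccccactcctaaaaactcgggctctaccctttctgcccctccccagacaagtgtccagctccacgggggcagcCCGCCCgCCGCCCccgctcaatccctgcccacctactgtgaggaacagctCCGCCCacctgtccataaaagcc
Col6a3 (chr1:90843972-90844221, minus strand): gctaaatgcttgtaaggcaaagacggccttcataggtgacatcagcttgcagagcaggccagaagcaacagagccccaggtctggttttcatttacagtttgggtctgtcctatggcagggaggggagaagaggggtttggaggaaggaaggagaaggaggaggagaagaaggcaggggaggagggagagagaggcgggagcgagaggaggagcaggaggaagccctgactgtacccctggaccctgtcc
Col4a6 (chrX:141474077-141474326, minus strand): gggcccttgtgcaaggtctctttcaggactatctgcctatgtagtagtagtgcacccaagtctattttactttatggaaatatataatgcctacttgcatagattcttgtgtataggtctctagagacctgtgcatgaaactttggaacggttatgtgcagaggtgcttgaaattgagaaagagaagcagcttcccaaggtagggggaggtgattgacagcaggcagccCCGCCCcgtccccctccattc
The TATAAA of Col10a1 lies 32 bases before its start, while that of Col3a1 lies 117 bases before it. Col8a1 holds 4 GC boxes in this window, Col4a6 holds 1 and Col6a3 none. Windows were found for 35 of the 44 members and for 27025 genes in all, and 4 motifs were searched on both strands. TATAAA was in 14.3% of members and 14.3% of all genes, CCAAT in 37.1% and 37.5%, GGGCGG in 60.0% and 35.4%, and the AP-1 motif TGANTCA in 2.86% (Col6a1 alone) and 7.82%. These are matches of letters in a window and say nothing of a factor's binding. Among the 5 windows shown, TATAAA stood before Col3a1, which rose in every clone, and before Col10a1, which fell in every clone, as the values below show. Any part of the motif in these changes was not tested.

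Collagen RNA was led by type I in every group. Per kilobase of transcript, a scale that lets genes be compared, the WT means were 57666 normalized counts for Col1a2, 16208 for Col1a1 and 12890 for Col5a2, followed by Col6a1 at 6699, Col6a2 at 5407, Col6a3 at 5392, Col4a5 at 5171 and Col4a1 at 5146. In total 14 members had a mean of at least 1000 normalized counts over the 12 libraries. At the other end, 14 members did not reach 10 normalized counts in at least 3 libraries, the filter for testing, and 30 passed. Among those 30, Col4a3, Col6a5 and Col9a2 passed with every WT library under 10, and Col6a6 with every clone library under 10, so that their differences were in part fixed by the filter.

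All 44 chains together made up 1.99% ± 0.0548 of the normalized counts in WT (SD, n = 3) against 1.69% ± 0.0396 in KO1, 1.62% ± 0.0459 in KO2 and 1.46% ± 0.0619 in KO3. The lowest WT library, at 1.93%, was above the highest clone library, at 1.72%. The fibrillar chains made up 1.37% ± 0.00907 in WT against 1.21% ± 0.0317 in KO1, 1.22% ± 0.0216 in KO2 and 1.05% ± 0.0562 in KO3. Basement membrane chains made up 0.294% ± 0.0288 in WT and 0.186% ± 0.00462, 0.187% ± 0.0213 and 0.197% ± 0.00393 in the clones. Type I chains took 53.8% ± 2.47 of all collagen counts in WT against 54.9% ± 0.259 in KO1, 61.6% ± 1.39 in KO2 and 57.5% ± 1.29 in KO3. These sums are descriptions with no test. In such bulk libraries, fewer cells making a transcript and less of it per cell cannot be told apart.

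**Figure D1:**
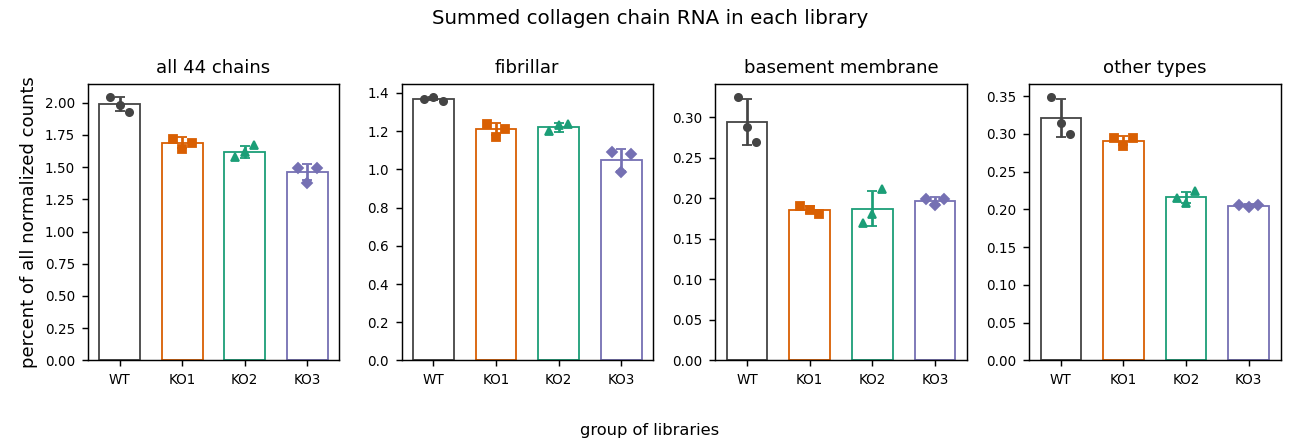
Summed collagen chain RNA as a percent of all normalized counts (y axes, starting at 0) in WT, KO1, KO2 and KO3 (x axes), for all 44 chains and for the 3 groups of chains; points are libraries, bars are means and error bars SD (n = 3). The 3 WT libraries, at 1.93% to 2.04%, lie above all 9 clone libraries for the sum of all chains.

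Chain by chain, the clones differed from WT in both directions. By limma with Benjamini-Hochberg adjustment over all 15073 genes tested (threshold 0.05), 12 of the 30 tested chains were higher and 13 lower in KO1, where 26.9% and 25.4% of all tested genes were called higher and lower. In KO2, 11 were higher and 12 lower, beside 29.9% and 30.5% of all genes. In KO3, 11 were higher and 12 lower, beside 26.8% and 27.3%. The median difference over the 30 chains was 0.26 in KO1, 0.05 in KO2 and -0.20 in KO3 on the log2 scale, against 0.02, 0.00 and 0.00 over all tested genes. The 3 comparisons share the WT libraries.

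Chains that rose in every clone numbered 7, beside 12.9% of all tested genes: the fibrillar Col3a1, Col5a3 and Col27a1, the fibril-associated Col20a1 and Col22a1, the transmembrane Col17a1, and Col28a1. Those that fell in every clone numbered 10, beside 13.3% of all genes: Col1a2, Col5a2, Col4a5, Col4a6, Col6a3, Col6a6, Col16a1, Col7a1, Col8a1 and Col10a1. Of these, Col1a2 kept its call in no clone after quantile normalization. One chain, Col6a2, was called in opposite directions in 2 clones, as 8.38% of all tested genes were. Col4a3 was the only tested chain called in no clone. Differences here are between means of log2(normalized count + 1), which understates the change of weakly expressed genes.

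**Figure D2:**
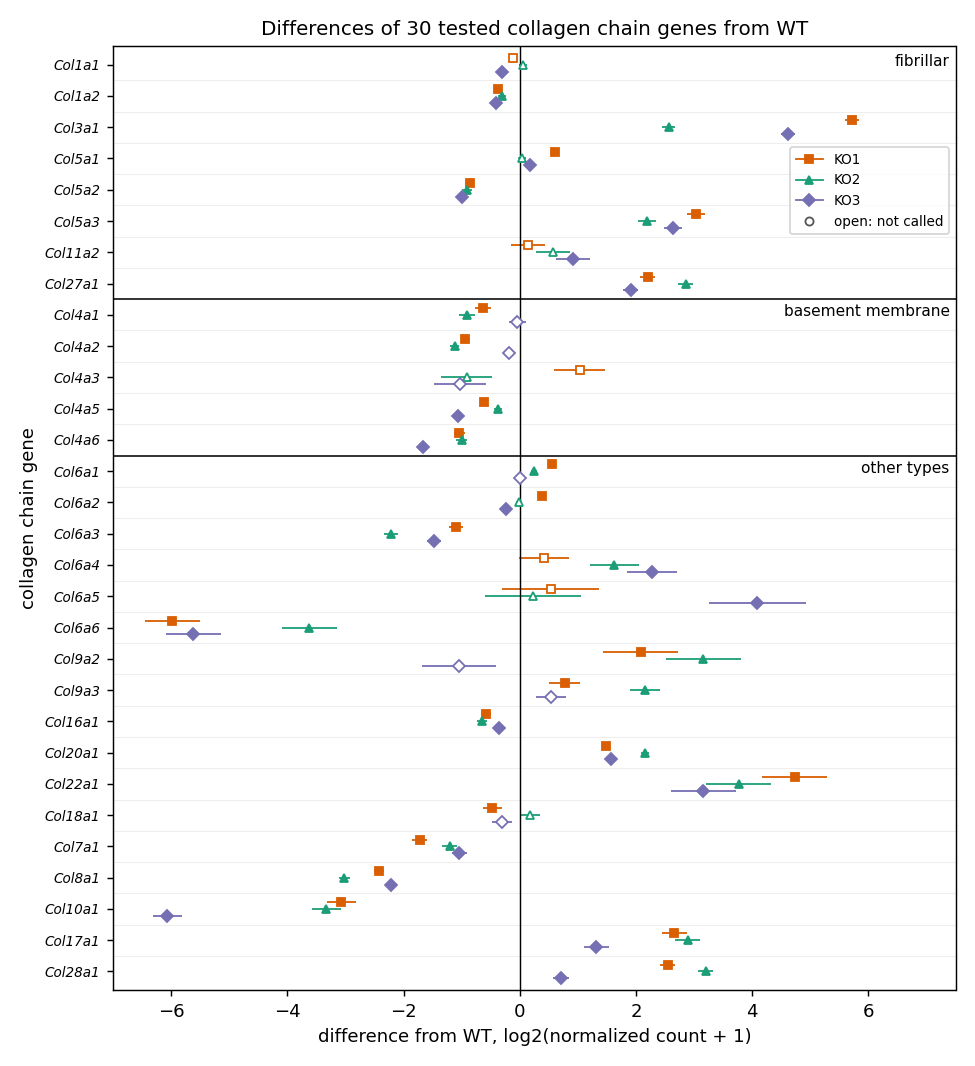
Difference from WT in log2(normalized count + 1) (x axis) for each of the 30 tested chains (y axis) in KO1, KO2 and KO3; bars are SE from the limma fit, filled symbols passed the adjusted threshold and open symbols did not. Col3a1 lies farthest to the right (5.72 in KO1) and Col10a1 farthest to the left (-6.07 in KO3).

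The type I chains changed little. Col1a1, the alpha 1 chain of type I, was at 91619, 97333 and 99391 normalized counts in WT, 89604, 85780 and 90047 in KO1, 99550, 103281 and 97839 in KO2 and 80289, 71168 and 82455 in KO3. Only in KO3 did it pass the test, at -0.30 (SE 0.07, adjusted p = 0.00231), with KO1 at -0.12 and KO2 at 0.06. Its partner Col1a2 was at 311509, 308960 and 304717 in WT, 246282, 232682 and 238969 in KO1, 241374, 247701 and 256468 in KO2 and 240658, 216181 and 239176 in KO3. No clone library of Col1a2 reached the WT range. It fell, with differences of -0.37, -0.31 and -0.41 on the log2 scale (SE 0.07, adjusted p = 0.00117, 0.00278 and 4.44e-04). Both chains depend on the scaling: after quantile normalization Col1a2 stood at -0.04, 0.08 and -0.17 with no call, Col1a1 in KO3 at -0.10 with no call, and Col1a1 was higher in KO1 at 0.22 (adjusted p = 0.0232) and in KO2 at 0.58 (adjusted p = 2.37e-05). The protein holds 2 alpha 1 chains for each alpha 2 chain, yet per kilobase the RNA of Col1a2 exceeded that of Col1a1 by 3.56 ± 0.189 times in WT against 3.0 ± 0.053 in KO1, 2.75 ± 0.135 in KO2 and 3.30 ± 0.078 in KO3. This ratio rests on the length used: with the union of all annotated exons it was 1.7 in WT.

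Col3a1, the single chain of type III collagen (chr1:45311538-45349706, plus strand, GRCm38), had the largest difference from WT among the fibrillar chains in KO1 and KO3; in KO2 that of Col27a1 was larger (2.86 beside 2.56). It stood at 156, 133 and 156 normalized counts in WT, 8004, 6653 and 9159 in KO1, 1013, 772 and 866 in KO2 and 3847, 3357 and 3789 in KO3. The 4 groups did not overlap at any point and ran in the order WT, KO2, KO3, KO1. It rose by 5.72, 2.56 and 4.62 on the log2 scale (SE 0.12), or 52.9-fold, 5.9-fold and 24.6-fold, with adjusted p of 6.5e-12, 5.15e-09 and 3.01e-11. In the authors' deposited table the log2 fold changes of Col3a1 are 5.73, 2.56 and 4.62. Even so, type III RNA stayed far below type I: per kilobase, Col3a1 reached 0.0319 ± 0.00471 of Col1a2 in KO1, against 4.63e-04 ± 4.38e-05 in WT.

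Type V, the fibril starter, changed chain by chain. Col5a1 was at 30904, 28541 and 28029 normalized counts in WT, 46432, 43498 and 43841 in KO1, 27863, 29660 and 32630 in KO2 and 34095, 31870 and 32838 in KO3. It rose in KO1 by 0.61 (SE 0.07, adjusted p = 7.62e-06), was not called in KO2 (0.04) and was just called in KO3 at 0.18 (adjusted p = 0.0384). The KO3 call was lost without WT replicate 2 (0.16), WT replicate 3 (0.15), KO3 replicate 1 (0.15) or KO3 replicate 3 (0.18), with adjusted p of 0.0761 to 0.124, and also after quantile normalization (0.12), with no filter or in a fit of the 2 groups alone. Col5a2 was at 94790, 81725 and 79672 in WT, 49640, 45625 and 45375 in KO1, 43143, 44434 and 48150 in KO2 and 44082, 42786 and 40682 in KO3. All 9 clone libraries of Col5a2 lay in a narrow band below WT, and it fell, with differences of -0.86, -0.91 and -1.0 (SE 0.08; adjusted p = 1.3e-06, 5.71e-07 and 2.61e-07). The clones were not called different from each other for this gene in the fit used here. After quantile normalization KO3 was called lower than KO1 (-0.24, adjusted p = 0.0162) and lower than KO2 (-0.24, adjusted p = 0.013). In a fit of the 2 groups alone KO3 was also called lower than KO1 (-0.14, adjusted p = 0.0386). The ratio of Col5a2 to Col5a1 per kilobase was lower in the clones: it was 3.71 ± 0.158 in WT but 1.33 ± 0.0218 in KO1, 1.91 ± 0.0473 in KO2 and 1.64 ± 0.0658 in KO3. Col5a3, the alpha 3 chain of type V, was at 12.9, 16.6 and 15.4 in WT, 134, 118 and 136 in KO1, 66.2, 68 and 81.8 in KO2 and 102, 87.7 and 104 in KO3. It rose by 3.03, 2.19 and 2.64 (SE 0.16; adjusted p = 1.32e-08, 1.92e-07 and 3.6e-08), yet stayed at or below 21.1 normalized counts per kilobase, beside 5305 for Col5a1 in KO1.

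Col3a1 and Col5a2 are neighbours on chromosome 1, end to end with 24.6 kb and no protein-coding gene between them, and they moved in opposite directions in all 3 clones. Among the remaining fibrillar chains, Col27a1, the chain of type XXVII collagen of cartilage and other tissues, was at 114, 92.2 and 133 normalized counts in WT, 537, 513 and 501 in KO1, 754, 745 and 977 in KO2 and 418, 412 and 439 in KO3. Every clone library was above WT, KO2 highest. It rose by 2.20, 2.86 and 1.91 (SE 0.13; adjusted p = 4.72e-08, 3.78e-09 and 1.35e-07). Col11a2, a chain of type XI, ranged from 133 to 358 over the 12 libraries and was called in KO3 alone, at 0.91 (SE 0.29, adjusted p = 0.0182). That call was lost without WT replicate 2 (0.72), KO3 replicate 1 (0.86) or KO3 replicate 3 (0.86), with adjusted p of 0.0752, 0.0539 and 0.056. Col2a1, Col11a1 and Col24a1 were too low to test. Col11a1 held 18 reads in WT against 0 in KO1, at least 5.95-fold lower when the 0 is set to the floor of 3 reads per group.

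**Figure D3:**
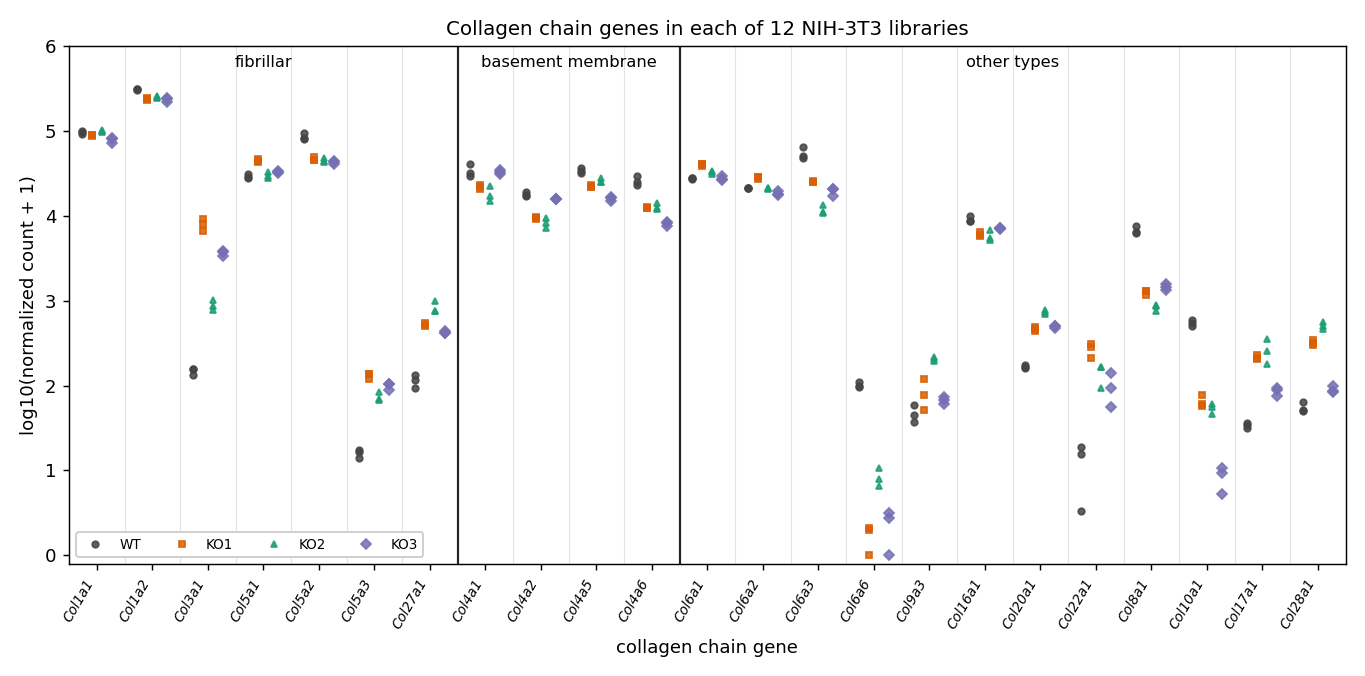
Values of 23 chains, those with a mean of at least 1000 normalized counts or a called log2 change of at least 2 from WT with a group mean of at least 100, in each of the 12 libraries; the y axis is log10(normalized count + 1), and each symbol is 1 library. Col3a1 runs from 133 normalized counts in the lowest WT library to 9159 in the highest KO1 library, while the 12 values of Col1a1 lie between 71168 and 103281.

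In the basement membrane group no chain was called higher in any clone in the fit used here. Col4a3 in KO1, at 1.03, was called higher under some alternatives given below. The chains called lower were 2 pairs that differed between clones. Type IV collagen is built from heterotrimers, the common one of alpha 1 and alpha 2 chains and others with alpha 5 and alpha 6 chains. Of 5 tested chains, 4 fell in KO1, 4 in KO2 and 2 in KO3, beside 25.4%, 30.5% and 27.3% of all tested genes. Col4a1 was at 40802, 31926 and 29394 normalized counts in WT, 22739, 21962 and 20614 in KO1, 14835, 17139 and 22659 in KO2 and 33052, 30820 and 34782 in KO3. It fell, with differences of -0.63 and -0.91 in KO1 and KO2 (SE 0.14; adjusted p = 0.00267 and 1.37e-04) and was at -0.04 in KO3 (adjusted p = 0.846), where its libraries overlapped WT. Col4a2 was at 19288, 17630 and 17054 in WT, 9611, 9284 and 9157 in KO1, 7243, 8276 and 9389 in KO2 and 15693, 15845 and 15949 in KO3. It fell, with differences of -0.94 and -1.12 (SE 0.08; adjusted p = 9.25e-07 and 1.45e-07), with -0.18 in KO3 (adjusted p = 0.0708); after quantile normalization the KO3 difference was -0.24 and was called (adjusted p = 0.0111). The test of KO3 against KO1 gave 0.59 for Col4a1 and 0.76 for Col4a2 (adjusted p = 0.00491 and 1.02e-05), and KO3 against KO2 gave 0.87 and 0.94 (adjusted p = 2.40e-04 and 9.76e-07).

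The X-linked pair behaved otherwise, with KO3 lowest. Col4a5 was at 36511, 33308 and 31568 normalized counts in WT, 22770, 21688 and 21772 in KO1, 24843, 24887 and 28178 in KO2 and 16782, 16338 and 15076 in KO3. The differences of Col4a5 from WT were -0.61, -0.38 and -1.07 (SE 0.07; adjusted p = 1.31e-05, 4.66e-04 and 6.62e-08). Col4a6 was at 29396, 25016 and 22978 in WT, 12754, 12385 and 12376 in KO1, 11969, 12263 and 14286 in KO2 and 8370, 8191 and 7593 in KO3. Col4a6 fell, with differences of -1.04, -1.0 and -1.67 (SE 0.09; adjusted p = 9.85e-07, 9.73e-07 and 9.62e-09). For both genes the KO3 libraries lay below all others, and KO3 was lower than KO1 by test (-0.46 for Col4a5, adjusted p = 2.02e-04, and -0.64 for Col4a6, adjusted p = 9.94e-05). Each pair lies back to back: Col4a1 and Col4a2 on chromosome 8 with annotated starts that overlap, and Col4a6 and Col4a5 on X with 1308 bases between their starts. Within the first pair, Col4a1 over Col4a2 per kilobase was 1.84 ± 0.201 in WT and 2.27 ± 0.0645, 2.12 ± 0.199 and 2.03 ± 0.117 in the clones. Between the pairs, Col4a1 over Col4a5 was 0.99 ± 0.0995 in WT against 0.974 ± 0.0343 in KO1, 0.688 ± 0.102 in KO2 and 2.03 ± 0.22 in KO3. Within the X-linked pair, Col4a5 over Col4a6 went from 1.34 ± 0.0684 to 1.80 ± 0.0181, 2.06 ± 0.0526 and 2.03 ± 0.01. Of the back-to-back pair Col4a3 and Col4a4 on chromosome 1, Col4a3 stood between 1.07 and 19.7 over all libraries with no call in the fit used here (adjusted p of 0.0633 to 0.0914), and Col4a4 stayed under 10. Col4a3 in KO1 was called by edgeR on recovered reads (1.11, adjusted p = 0.0291), with a pseudocount of 5 (0.79, adjusted p = 0.0156) and in a fit of the 2 groups alone (1.03, adjusted p = 0.0146); Col4a3 in KO3 was called without KO3 replicate 1 (-1.26) or 2 (-1.37).

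**Figure D4:**
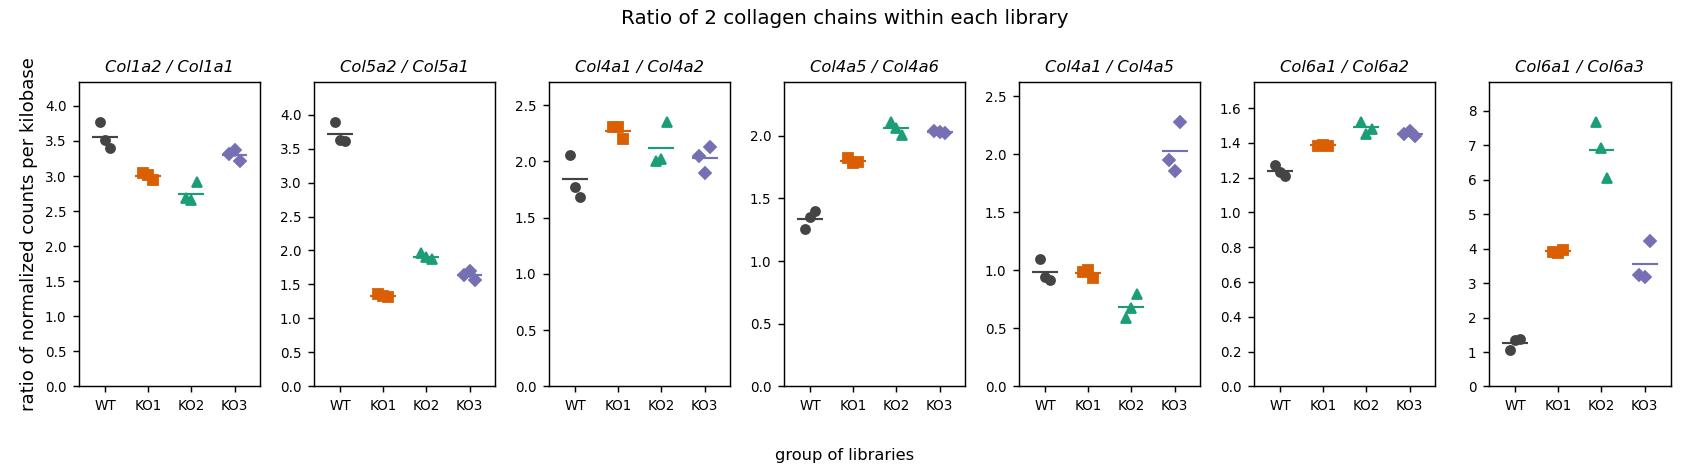
Ratio of normalized counts per kilobase between 2 chains (y axes, starting at 0) in each library of WT, KO1, KO2 and KO3 (x axes); points are libraries and lines are means. Col6a1 over Col6a3 runs from 1.26 in WT to 6.88 in KO2, and Col5a2 over Col5a1 from 3.71 in WT to 1.33 in KO1.

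Type VI collagen is assembled from alpha 1, alpha 2 and one further chain, most often alpha 3, and these genes parted in the clones. Col6a1 was at 28181, 27467 and 26745 normalized counts in WT, 40830, 39036 and 40514 in KO1, 33397, 31115 and 32928 in KO2 and 27001, 26577 and 29118 in KO3. It rose in KO1 and KO2 by 0.55 and 0.24 (SE 0.05; adjusted p = 3.17e-06 and 0.00171) and was at 0.00 in KO3. Col6a2 was at 21392, 21434 and 21226 in WT, 28404, 26954 and 28276 in KO1, 21162, 20631 and 21359 in KO2 and 17970, 17391 and 19423 in KO3. It rose by 0.38 in KO1 and fell by 0.23 in KO3 (SE 0.05; adjusted p = 4.06e-05 and 0.00207), and KO2 was at -0.02. These 2 genes lie on the same strand of chromosome 10, 85.2 kb apart. Col6a3 was at 65368, 50662 and 47430 in WT, 25815, 24776 and 25176 in KO1, 10725, 11067 and 13422 in KO2 and 20595, 20545 and 17014 in KO3. Every clone library was far below WT and KO2 lowest. It fell, with differences of -1.10, -2.21 and -1.48 (SE 0.12; adjusted p = 9.46e-06, 1.4e-08 and 5.15e-07), and KO2 differed from KO1 by -1.11 (adjusted p = 1.34e-05). Per kilobase, Col6a1 over Col6a3 was 1.26 ± 0.176 in WT against 3.92 ± 0.0442 in KO1, 6.88 ± 0.815 in KO2 and 3.55 ± 0.583 in KO3, while Col6a1 over Col6a2 stayed between 1.21 and 1.52 over the 12 libraries.

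Col6a4, Col6a5 and Col6a6, whose chains can take the place of alpha 3, are clustered on chromosome 9, and their RNA was scarce. Col6a6 was at 108, 94.2 and 98.4 normalized counts in WT, 1.07, 0 and 0.984 in KO1, 5.6, 9.58 and 7.03 in KO2 and 0, 1.75 and 2.13 in KO3. It was nearly silent in KO1 and KO3, and it fell, with differences of -5.98, -3.62 and -5.62 (SE 0.47; adjusted p = 4.44e-07, 2.67e-05 and 6.29e-07). In KO1, 2 reads against 292 in WT gave a ratio of 145 (95% exact counting interval 39.7 to 1201, counting error only). Its neighbours went the other way or were not called: Col6a4 was between 8.28 and 10.6 in WT and between 39.4 and 57 in KO3, with calls in KO2 (1.63, adjusted p = 0.00535) and KO3 (2.27, adjusted p = 6.59e-04). Col6a5 was at 16.6, 85.1 and 30.9 in KO3 and at or below 5.9 elsewhere, with a call in KO3 alone (4.09, SE 0.83, adjusted p = 0.00114). The difference was 3.47 without KO3 replicate 2 and 4.72 without WT replicate 2, still called. Col6a6 passed the filter on low values through WT alone and Col6a5 through KO3 alone. The differences of both were in part fixed by the filter, and that the Col6a5 call was kept adds no support.

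Fibril-associated collagens, which sit on the surface of fibrils, were mostly scarce apart from Col16a1. Of 5 tested, 4 rose in KO1, 4 in KO2 and 2 in KO3, beside 26.9%, 29.9% and 26.8% of all tested genes. After quantile normalization 2 of the KO1 calls (Col9a2 and Col9a3) were lost. Among the KO2 calls, that of Col9a2 was in part fixed by the filter, which only KO2 met with all its libraries. Col16a1 was at 9875, 8738 and 8556 normalized counts in WT, 6446, 5913 and 5819 in KO1, 5156, 5453 and 6761 in KO2 and 6966, 7135 and 7192 in KO3. It was the 1 of the 5 that fell, by 0.58, 0.65 and 0.35 (SE 0.09; adjusted p = 1.82e-04, 4.95e-05 and 0.00592). Col20a1 was at 159, 173 and 163 in WT, 484, 441 and 467 in KO1, 733, 704 and 771 in KO2 and 500, 496 and 479 in KO3. Its libraries were tight within each group, and it rose by 1.49, 2.15 and 1.57 (SE 0.07; adjusted p = 8.46e-09, 2.97e-10 and 3.73e-09). Col22a1, a collagen of tissue junctions, was at 2.35, 14.5 and 18.1 in WT, 208, 307 and 284 in KO1, 163, 165 and 91.4 in KO2 and 138, 54.4 and 91.6 in KO3. It rose by 4.73, 3.77 and 3.16 with a wide error (SE 0.56; adjusted p = 1.7e-05, 8.05e-05 and 3.93e-04). Without WT replicate 1, the lowest library, the differences were 3.94, 2.98 and 2.38, still called.

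Col9a3 and Col9a2 encode chains of type IX, which decorates the type II fibrils of cartilage. Col9a3 was at 57.6, 43.5 and 36.1 normalized counts in WT, 77.1, 50.7 and 118 in KO1, 216, 202 and 191 in KO2 and 66.3, 59.7 and 71.4 in KO3. KO2 stood apart from all other groups, at 2.15 (SE 0.26, adjusted p = 1.65e-05). The KO1 call (0.77, adjusted p = 0.0265) was lost without WT replicate 2 (0.75), WT replicate 3 (0.62), KO1 replicate 1 (0.77) or KO1 replicate 3 (0.47), and KO3 (0.54) was called only without WT replicate 1 (0.71, adjusted p = 0.0436). Col9a2 was at 6.42, 42.2 and 7.87 in KO1 and 35.5, 21.1 and 32.5 in KO2, and at or below 4.52 in WT and KO3. It was called in KO2 (3.16, SE 0.64, adjusted p = 9.51e-04) and in KO1 (2.08, adjusted p = 0.016), the latter lost without KO1 replicate 2 (1.28, adjusted p = 0.0657) or WT replicate 2 (1.72, adjusted p = 0.0615). Both KO1 calls were lost after quantile normalization (Col9a3 0.41, Col9a2 1.16; adjusted p = 0.228 and 0.171) and in a fit of the 2 groups alone (adjusted p = 0.09 and 0.0519). Type II collagen itself, Col2a1, reached 17.7 normalized counts in 1 KO1 library and 5.88 or less in the others. Sox9, the chondrocyte transcription factor, was at 1874 in WT against 3815 in KO1, 6424 in KO2 and 2137 in KO3, but of the other 6 chondrocyte markers the proteoglycan Acan and the matrix protein Comp had means of at most 14.2 and Matn1, Matn3, Hapln1 and Cnmd were near 0. The part of Sox9 in these values was not tested.

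Of the anchoring and short-chain network collagens, all 3 tested chains, Col7a1, Col8a1 and Col10a1, fell in every clone, as 13.3% of all tested genes did. Col8a1, a chain of the hexagonal network of type VIII, was at 7498, 6424 and 6320 normalized counts in WT, 1312, 1300 and 1173 in KO1, 753, 854 and 885 in KO2 and 1554, 1455 and 1320 in KO3. Col8a1 fell, with differences of -2.42, -3.02 and -2.22 (SE 0.09), or 5.33-fold, 8.11-fold and 4.67-fold, with adjusted p of 4.43e-10, 7.7e-11 and 7.94e-10. Col10a1, the type X chain of hypertrophic cartilage, was at 496, 589 and 537 in WT, 76, 59.1 and 56.1 in KO1, 44.8, 54.6 and 59.8 in KO2 and 8.29, 9.65 and 4.26 in KO3. KO3 lay below the other 2 clones, which overlapped each other. Col10a1 fell, with differences of -3.07, -3.33 and -6.07 (SE 0.25; adjusted p = 5.95e-07, 2.16e-07 and 9.28e-10), and KO3 differed from KO1 by -3.0 (adjusted p = 1.39e-06). Col7a1, the anchoring fibril chain of the skin, ranged from 715 to 897 in WT and from 215 to 392 in the clones, at -1.72, -1.21 and -1.04 (SE 0.13). Col8a2, the other type VIII chain, had 3 reads in all 12 libraries.

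Col17a1 and Col28a1, chains of other architecture, rose in every clone. Col17a1, the transmembrane collagen of hemidesmosomes, was at 30.6, 35.2 and 33.4 normalized counts in WT, 211, 226 and 206 in KO1, 177, 353 and 253 in KO2 and 73.6, 91.3 and 87.4 in KO3. It rose by 2.66, 2.89 and 1.32 (SE 0.21; adjusted p = 4.21e-07, 1.5e-07 and 1.61e-04), and less in KO3 than in KO1 (-1.34, adjusted p = 2.18e-04). Beside this, the 7 epithelial markers summed to 97.6 to 111 in WT, 362 to 383 in KO1, 212 to 236 in KO2 and 326 to 341 in KO3. They did not move together. Cdh1, the highest of them in the clones, was at 17.8 in WT against 350, 185 and 307, and Krt14 at 2.03 against 14.2, 20.3 and 20.4. Krt8, the highest in WT, went the other way, from 84.8 to 5.26, 9.59 and 4.41. Epcam was at 0 in WT, KO1 and KO2, and Cldn4 was at 0 in every library. Their part in the rise of Col17a1 was not tested. Col28a1, the type XXVIII chain, was at 62.3, 50.7 and 49.7 in WT, 319, 301 and 345 in KO1, 456, 495 and 566 in KO2 and 86, 83.4 and 98 in KO3. It rose by 2.55, 3.20 and 0.71 (SE 0.13; adjusted p = 9.37e-09, 1.1e-09 and 5.48e-04), with KO3 well below the other clones. Col18a1, the basement membrane multiplexin that gives rise to endostatin, ranged from 645 to 1392 and was called in KO1 alone (-0.47, adjusted p = 0.0312), a call lost without WT replicate 1 (-0.27), KO1 replicate 1 (-0.38) or KO1 replicate 3 (-0.51), or in a fit of the 2 groups alone (adjusted p = 0.056); without WT replicate 1, KO2 was called at 0.38.

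The 14 chains not tested were Col2a1, Col11a1, Col24a1, Col4a4, Col9a1, Col12a1, Col14a1, Col19a1, Col15a1, Col8a2, Col13a1, Col23a1, Col25a1 and Col26a1. Col25a1 had no read in any library. Col12a1, a fibril-associated chain, was at 52.7 normalized counts in 1 KO2 library and at 4.28 or less in the other 11. Col14a1, another fibril-associated chain, had 1 read in WT against 19 in KO1 and 26 in KO3, ratios of 19.2 (interval 3.05 to 796) and 25 (interval 4.1 to 1024). Col13a1, a transmembrane chain, had 9 reads in KO1 and 0 in WT, at least 3.03-fold higher against the floor. Reads are recovered from the normalized values and may be rounded estimates, so such small counts carry more error than the intervals show.

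The clones also differed from one another. Of the 30 tested chains, 10 were higher and 8 lower in KO2 than in KO1, beside 20.5% and 23.9% of all tested genes. KO3 had 6 higher and 14 lower than KO1 (20.3% and 23.4% of all genes), and 8 higher and 14 lower than KO2 (26.1% and 27.0%). Col3a1 separated all 3 clones, at -3.16 for KO2 against KO1, -1.11 for KO3 against KO1 and 2.06 for KO3 against KO2 (SE 0.12). Col28a1 was lower in KO3 than in KO1 and KO2, at -1.84 and -2.49 (SE 0.13). Col6a1 ran from KO1 through KO2 to KO3, at -0.31, -0.54 and -0.24 for the same 3 contrasts (SE 0.05). Some smaller calls between clones were lost when 1 library was left out, often with little change in the difference itself. Col6a3 in KO3 against KO1 (-0.39) was lost without KO1 replicate 1 (-0.37), KO1 replicate 3 (-0.39) or KO3 replicate 3 (-0.30). Col1a1 in KO2 against KO1 (0.18) was lost without any 1 of the 6 libraries compared (adjusted p of 0.0637 to 0.156). In KO3 against KO1 (-0.18) its call was lost without any 1 KO1 library or without KO3 replicate 1 or 2 (adjusted p of 0.0623 to 0.182). Both Col1a1 calls were also lost with no filter (adjusted p = 0.113 and 0.104) and with the replicate block (adjusted p = 0.0814 and 0.0754).

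Genes that act on collagens were taken from 6 lists, chosen with earlier results of these data known and given as counts with no test of the list. Of all tested genes, the shares that rose and fell were 26.9% and 25.4% in KO1, 29.9% and 30.5% in KO2, and 26.8% and 27.3% in KO3. Of 20 tested genes that fold, hydroxylate or export procollagen in the endoplasmic reticulum, 3 rose and 11 fell in KO1, 2 and 13 in KO2, and 1 and 17 in KO3, with medians of -0.18, -0.24 and -0.62. After quantile normalization the counts were 5 and 7, 2 and 9, and 2 and 16. P4ha2, a catalytic subunit of prolyl 4-hydroxylase, fell from 3592 ± 80.2 normalized counts in WT to 2795 ± 47.5, 2176 ± 46.3 and 1979 ± 31.5 (SD, n = 3; -0.36, -0.72 and -0.86). Crtap, a partner of prolyl 3-hydroxylase, fell, with differences of -0.99, -1.06 and -1.50 (SE 0.19), and Fkbp14, a prolyl isomerase, was at -0.41, -0.24 and -1.25 (SE 0.08). P3h3, a member of the prolyl 3-hydroxylase family, fell in KO1 and KO3 (-1.53 and -1.43, SE 0.10) and was at 0.09 in KO2. The genes that rose, named after their values were seen, were P4ha3 in KO1 (0.19), P3h4 and Plod1 in KO1 and KO2 (0.96 and 0.85; 0.22 and 0.35) and Mia2 in KO3 (0.49).

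Of 10 tested genes that trim procollagen or crosslink fibrils, 4 rose and 3 fell in KO1, 4 and 2 in KO2, and 1 and 3 in KO3, beside the shares of all genes given above. Lox, the lysyl oxidase that starts crosslinking, was at 119855 ± 3631 normalized counts in WT and rose to 273674 ± 4182 in KO1 and 206739 ± 6485 in KO2 (1.19 and 0.79, SE 0.06), while KO3 was at 131369 ± 3046 (0.13, adjusted p = 0.0952). Pcolce, which enhances removal of the C-propeptide, rose in every clone (0.44, 0.74 and 0.64, SE 0.07). Adamts2, the N-propeptidase, fell in KO1 and KO3 (-0.35 and -0.85) and was at 0.02 in KO2. Loxl4 also fell in KO1 and KO3 (-1.60 and -0.47, SE 0.06), and in KO2 it was at -0.14, just short of a call (adjusted p = 0.0504). Of 5 tested small proteoglycans that bind fibrils, 5 fell in KO1, 3 in KO2 and 5 in KO3. Of all tested genes, 25.4%, 30.5% and 27.3% fell. Omd rose in KO2 (0.82). Fmod, at 12.7 ± 3.07 in WT against 1.01, 0.293 and 0.292 in the clones, passed the filter on low values through WT alone. Its falls, counted in every clone, were in part fixed by the filter. Bgn, which encodes biglycan, was at 187669 ± 4202 in WT and fell to 78029 ± 1137, 65978 ± 171 and 48278 ± 2062 (-1.27, -1.51 and -1.96, SE 0.05), and Prelp from 192 ± 5.18 to 13.7 ± 2.67, 3.33 ± 1.74 and 44.6 ± 7.54.

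Of 12 tested basement membrane partners of type IV collagen, 3 rose and 5 fell in KO1, 5 and 5 in KO2, and 3 and 6 in KO3, beside 26.9% and 25.4%, 29.9% and 30.5%, and 26.8% and 27.3% of all tested genes. Nid1, nidogen 1, which links laminin to type IV collagen, fell in KO1 by 1.75 and rose in KO2 and KO3 by 1.22 and 1.47 (SE 0.06), while Nid2 rose in KO1 and KO2 (0.64 and 0.46) and fell in KO3 by 1.10 (SE 0.06). The laminin chain Lamc1 and agrin (Agrn) fell in every clone, Lamc1 at -0.57, -0.55 and -0.48 and Agrn at -0.56, -0.66 and -0.84. Another laminin chain, Lamb3, rose in every clone, from 34.9 ± 23.7 in WT to 133 ± 67.8, 201 ± 12.5 and 158 ± 70.7 (2.07, 2.78 and 2.34, SE 0.53). Of 7 tested collagen receptors, 3 rose and 3 fell in KO1, 2 and 3 in KO2, and 3 and 3 in KO3, beside the same shares of all genes. The receptor tyrosine kinase Ddr1 rose by 1.55, 1.49 and 1.31 (SE 0.07) and the uptake receptor Mrc2 by 0.69, 0.58 and 0.21 (SE 0.04), whereas the integrin chains Itga1 (-0.74, -1.30 and -2.04), Itga10 (-1.78, -2.23 and -2.10) and Itgb1 (-0.33, -0.40 and -0.21) fell in every clone.

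Of 13 tested transcription factors known to act on collagen genes, 5 rose and 4 fell in KO1, 4 and 5 in KO2, and 6 and 5 in KO3, beside 26.9% and 25.4%, 29.9% and 30.5%, and 26.8% and 27.3% of all tested genes. Creb3l1, a membrane-bound factor that drives type I collagen genes, fell from 1719 ± 112 normalized counts in WT to 675 ± 51.9, 665 ± 3.04 and 938 ± 109 (-1.35, -1.37 and -0.88, SE 0.09). Cebpb rose by 1.27, 1.06 and 1.18 (SE 0.25), Runx2 fell, with differences of -0.44, -0.75 and -0.51 (SE 0.10), and Sox9 rose by 1.03, 1.78 and 0.19 (SE 0.06). Sox5 fell in KO1 and KO3 (-1.31 and -1.66, SE 0.13) and was at -0.04 in KO2. Sox6 was at 205 ± 105 in KO1 and at 5.42 or less on average in the other groups. It passed the filter on low values through KO1 alone, so its rise, counted in KO1, was in part fixed by the filter. Runx2 and Sox9 are also on the osteoblast and chondrocyte marker lists. Beside these, the 5 myofibroblast and smooth muscle markers, all tested, summed to 8212 to 9630 normalized counts in WT, 7232 to 7667 in KO1, 1315 to 1507 in KO2 and 6520 to 6921 in KO3. Acta2, smooth muscle actin, made up most of these sums (8670 in WT against 6783, 1019 and 6591), while desmin (Des) was at 82.4 in WT against 172, 228 and 154, Cnn1 at 15.5 against 103, 38.9 and 11.6, Tagln at 262 against 320, 107 and 22.7, and Myh11 at 6.94 to 12.4. The part of these markers in the collagen values was not tested.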

How the data were processed

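The submitters' processing notes name cutadapt, Salmon 0.14.1, DESeq2 1.24.0 and the build GRCm38 (mm10), with settings not given in the sources used here. The authors deposited normalized counts, treated here as non-negative signal, and tables of log2 fold changes and p-values for each clone against WT. Within 0.02, 99.94% to 99.99% of values above 0 per library were whole multiples of that library's smallest value, so whole reads, possibly rounded Salmon estimates, were recovered for edgeR 4.0.16 and DESeq2 1.42.0. Symbols and coordinates came from GENCODE M21 (35 identifiers unmatched, 0 sample columns unused).

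Genes with at least 10 normalized counts in at least 3 of 12 libraries (15073) were tested as log2(value + 1) with limma 3.58.1 (R 4.3.3) with a trended prior variance, all 4 groups together, 8 residual degrees of freedom, two-sided, with Benjamini-Hochberg adjustment over all tested genes and a threshold of 0.05. The fit was also run on simulated data, with a limited set of genes changed in KO1 alone and a fixed spread. That setting differs from these data, so the run does not vouch for the calls given here. Lengths are those of the protein-coding transcript with the longest coding sequence. The floor for 0 counts was 3 reads over a group.

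Members and lists were chosen with earlier results of these data known. All members may be named; every library is printed for those with a mean of at least 1000, or called with a log2 difference of at least 2 in size and a group mean of at least 100. From each other list, up to 4 genes with the lowest adjusted p in their weakest clone, and up to 2 with the largest called difference, are named. Alternatives were pseudocounts of 0.5 and 5, no filter, a mean of at least 100, quantile normalization, edgeR, DESeq2, the authors' table, only the 2 groups compared, a replicate block, each library left out and union exon length.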

Additional observations from a re-analysis of the deposited data

Results flagged for a closer look

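Col6a2, the alpha 2 chain of type VI collagen, moved in opposite directions in 2 clones: it was higher than WT in KO1 (0.38 on the log2 scale) and lower in KO3 (-0.23). In the same limma fit, KO3 minus KO1 was -0.61 (SE 0.05, adjusted p = 1.3e-06). Col6a2 was picked for its opposite calls against the same WT libraries, so this p-value adds no separate support. Of all tested genes, 8.38% had opposite calls in 2 clones. Each of the 3 KO1 libraries, at 26954 to 28404 normalized counts, lay above each of the 3 KO3 libraries, at 17391 to 19423, with WT between them at 21226 to 21434.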

How the results depend on the processing

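Of 90 gene results of a clone against WT, 16 changed their side of the threshold under any alternative, and of all 180, clone against clone included, 42 did. After quantile normalization Col1a1 in KO1 turned from -0.12 to 0.22 and Col1a2 in KO2 from -0.31 to 0.08; the cause was not tested. With a mean of at least 100 required, 7 chains rather than 11 were higher in KO2, as fewer genes were tested. The Col1a2 to Col1a1 ratio per kilobase in WT was 1.7 with the union of exons, since that length differs. Leaving out each library gave 23 to 24 called chains in KO1, 23 to 24 in KO2 and 21 to 24 in KO3.

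Same-numbered libraries did not deviate together (r -0.221 to 0.123, over 0.1 in 2 of 18 pairs). Of 12 libraries, 3 correlated best with their own number. These values gave no sign that the numbers pair the samples, though a weak pairing might not show in them. With the replicate block, 25 chains were called in KO1, 23 in KO2 and 22 in KO3, beside 25, 23 and 23 without it; the lost call was Col5a1 in KO3 (0.18, adjusted p = 0.0612). Single reads limit the scarce chains: those not tested had 0 to 88 reads over all 12 libraries.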
